A study of Homo sapiens with 8 samples.

Results

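The RNA of 9 leukemia surface antigens and therapy targets was followed in a human B-cell acute lymphoblastic leukemia (B-ALL) line as its cells became resistant to an inducible degradation drug. The members were taken by gene symbol, CD22, CD24, CD34, CD38, CD72, MME, FLT3, CSPG4 and IL7R, and each matched 1 of the 60754 rows of the expression table. SEM is a B-ALL line with a KMT2A rearrangement, and C17.2 and C3.2 are single clones edited in it. In all 8 libraries the cells carried a miniAID-mClover3 tag on both alleles of CTCF, the architectural protein that binds insulators and chromatin loop anchors, and expressed OsTIR1(F74G) with a zeocin resistance gene from a lentiviral cassette under the MND promoter. With this tag the auxin analog 5-Ph-IAA marks CTCF protein for destruction. C17.2 parental and C3.2 parental were the edited clones before the long drug course. C17.2 resistant and C3.2 resistant had been kept for 36 days in 1 µM 5-Ph-IAA with 100 µg/ml Zeocin and were then withdrawn from both drugs before harvest. The study describes a shortened CTCF without the tag in resistant C17.2 cells, beside tagged full-length CTCF that returns once the drugs are withdrawn, and full-length CTCF with a changed tag in resistant C3.2 cells. Each group has 2 libraries, and no label says whether these came from separate cultures, so the p-values measure only the spread between these libraries, which may be technical. The libraries of C17.2 and of C3.2 carry separate runs of numbers in their titles, whose meaning the labels do not give, so clone and any shared handling cannot be told apart.

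Surface antigens of B-ALL cells are used to recognize the disease by flow cytometry and as targets of antibodies, engineered T cells and kinase inhibitors. Leukemias with a KMT2A rearrangement resemble very early B-cell precursors and typically carry FLT3, CD22, CD72 and CSPG4 (NG2) while lacking MME (CD10). IL7R is the alpha chain of the interleukin-7 receptor, which pairs with the common gamma chain encoded by IL2RG and signals through JAK1, JAK3 and STAT5 to keep B-cell precursors alive and dividing.

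Values were TPM, a transcript's share of all transcripts after division by its length, which allow levels of different genes to be set side by side but keep no record of sequencing depth, which is unknown here. CD79A, PAX5, EBF1 and VPREB1, which mark B-lineage leukemia, were expressed, and 8 of the 11 B-lineage markers reached 1 TPM. Their summed level was 700 to 751 TPM in C17.2 parental, 642 to 645 in C17.2 resistant, 698 to 741 in C3.2 parental and 553 to 590 in C3.2 resistant. DNTT, RAG1 and BLNK stayed under 1 TPM. The T-cell and NK-cell markers CD3D and CD8A were listed at 0 throughout, although TRAC was at 38.6 to 49.2 TPM and NKG7 at 7 to 14.2 TPM, with only these 2 of 8 markers reaching 1 TPM. The 7 myeloid markers summed to between 2.65 and 6.29 TPM and the 4 erythroid markers to at most 0.52 TPM. The tagged gene itself, CTCF, was at 32.17 to 35.39 TPM in the 4 parental libraries and at 41.49 to 54.73 TPM in the 4 resistant libraries, without overlap. The degron acts on the protein, so this RNA level is not a check of depletion. Protein-coding genes held 36.0% to 43.3% of each library's TPM, and that share moves the deposited values of every gene, so changes below are given after a scaling factor per library (0.893 to 1.16).

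The members spanned the whole range of expression. In every group FLT3 was the most abundant, followed by CD22 and CD72. IL7R stood above CSPG4 in both parental groups and below it in both resistant groups. CD38 followed at a few TPM, and CD24, CD34 and MME were all under 1 TPM in every library. Among 11210 tested protein-coding genes, FLT3 lay above 98.0% to 98.4% of genes and CD22 above 96.3% to 97.1%, while CD38 lay above 26.4% and 31.7% in the parental groups and above 12% in C17.2 resistant, with C3.2 resistant between these. Neighbors in this order did not overlap between libraries, except CD34 with MME in both parental groups and CD24 with CD34 in C3.2 resistant.

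**Figure D1:**
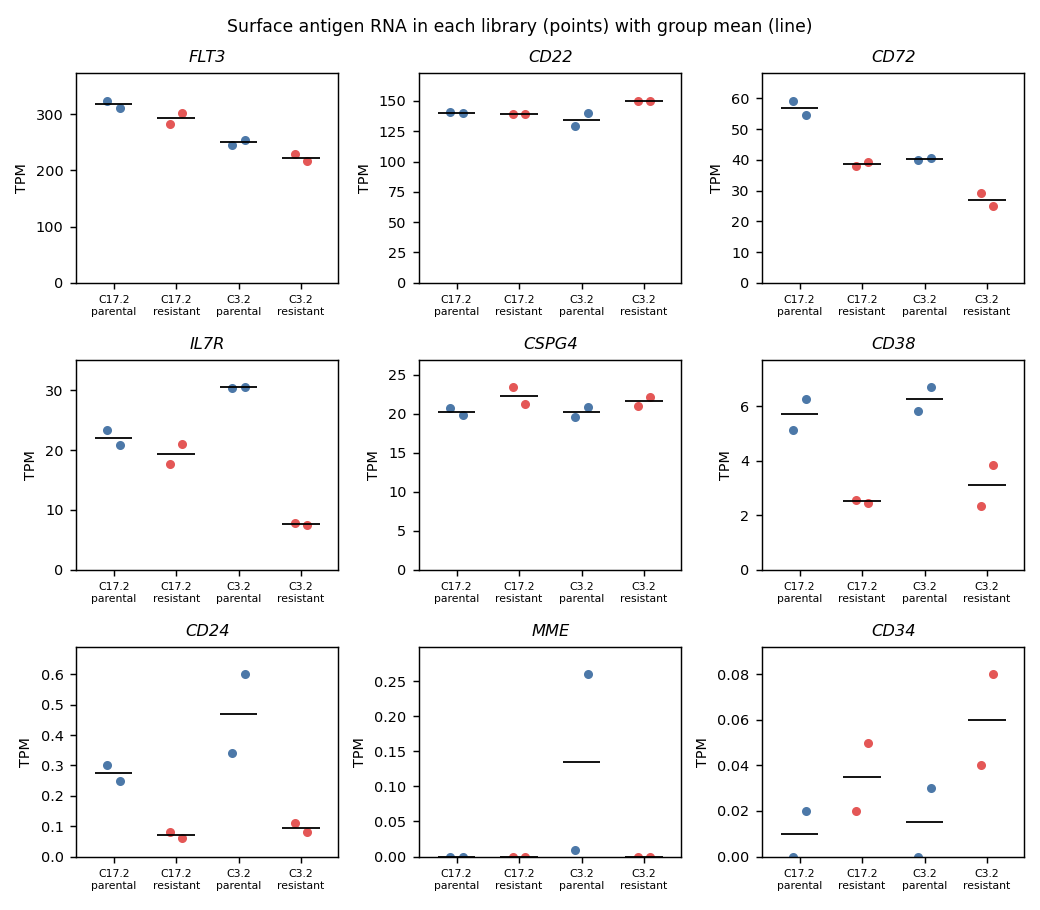
Deposited TPM (vertical axis, linear and starting at 0, its own range in each panel) of the 9 antigens in each of the 8 libraries (points, blue parental and red resistant), with the mean of the 2 libraries of a group as a line. CD38 and CD72 lie lower in the resistant libraries of both clones, IL7R falls to 7.43 and 7.82 TPM only in C3.2 resistant, and the axes of CD24, MME and CD34 end below 1 TPM.

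Resistant and parental cells were compared within each clone, which asks which transcripts differ between them. Only the resistant cells had the 36 days in 5-Ph-IAA and Zeocin and the withdrawal. Escape from the degron, long culture and either drug therefore cannot be told apart. The 6 members above 1 TPM, CD22, CD38, CD72, FLT3, CSPG4 and IL7R, entered the test, and each was above that level in all 8 libraries. CD24, CD34 and MME did not enter. CD38, CD72, FLT3 and IL7R fell in both clones at an adjusted p under 0.05 (limma, Benjamini-Hochberg over all 15614 genes tested), and CD22 and CSPG4 did not pass. So 4 of 6 tested members were called in C17.2, all lower, where 27.3% of all tested genes were called, 13.4% higher and 13.9% lower. In C3.2 it was again 4 of 6, all lower, against 11.4% of all genes, 4.46% higher and 6.9% lower. The median log2 fold change of the 6 was -0.31 in C17.2 and -0.43 in C3.2, against 0 over all tested genes in each. The balance of calls over all genes depended on the scaling. The share of calls that were higher was 49.1% in C17.2 and 39.3% in C3.2 as reported, 75.1% and 57.8% on the deposited TPM, 64.5% and 70.1% with TPM rescaled over protein-coding genes, and 54.1% and 50.8% after quantile normalization. In these bulk samples, fewer cells with a transcript and less of it per cell cannot be told apart. With 2 libraries against 2, an exact permutation test of a single gene cannot go below p = 0.333, so every call rests on limma's pooled spread.

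**Figure D2:**
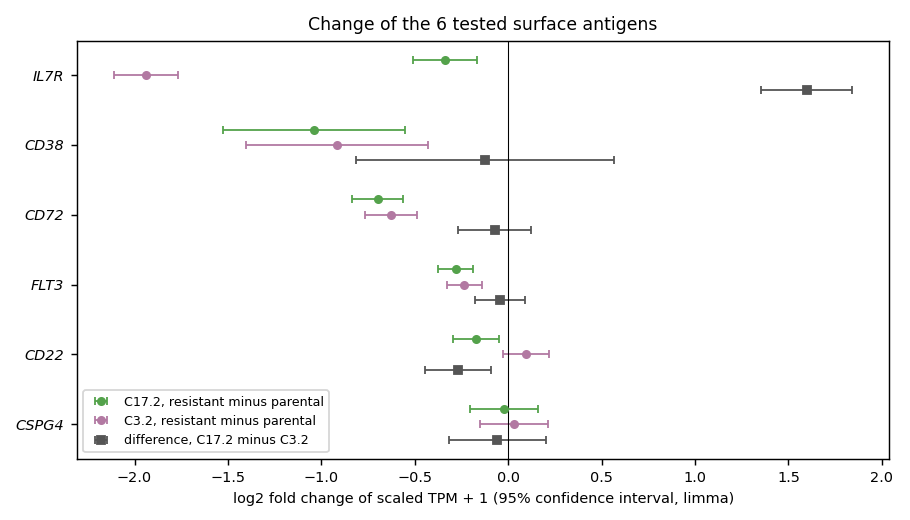
Log2 fold change of scaled TPM + 1 (horizontal axis) of the 6 tested antigens, with 95% confidence intervals from limma, for resistant minus parental cells in C17.2 (green circles), in C3.2 (purple circles) and for the difference between those changes, C17.2 minus C3.2 (dark squares). The circles of CD38, CD72 and FLT3 lie close together in the clones, and the square of IL7R, at 1.60, is the farthest from 0.

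The promoters of IL7R, CD72 and CD38 are shown because these members were called lower in both clones. FLT3, also called lower in both, is left out for its smaller log2 fold changes. Each is the 250 bases before a RefSeq start on GRCh38.p14, read 5′ to 3′ on the gene's strand. Capitals mark the ETS core GGAA on either strand (TTCC where it lies on the other), a motif bound by ETS family factors of B cells. They lie at chr5:35856641-35856890 on the plus strand for IL7R, chr9:35618414-35618663 on the minus strand for CD72 and chr4:15778078-15778327 on the plus strand for CD38. The IL7R and CD72 windows fall inside the annotated gene spans given below, which reach past these starts.
IL7R: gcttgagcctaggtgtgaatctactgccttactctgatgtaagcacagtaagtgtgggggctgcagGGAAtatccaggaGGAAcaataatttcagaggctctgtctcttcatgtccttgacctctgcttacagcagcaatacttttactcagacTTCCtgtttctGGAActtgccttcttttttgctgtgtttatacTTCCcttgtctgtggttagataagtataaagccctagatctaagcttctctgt
CD72: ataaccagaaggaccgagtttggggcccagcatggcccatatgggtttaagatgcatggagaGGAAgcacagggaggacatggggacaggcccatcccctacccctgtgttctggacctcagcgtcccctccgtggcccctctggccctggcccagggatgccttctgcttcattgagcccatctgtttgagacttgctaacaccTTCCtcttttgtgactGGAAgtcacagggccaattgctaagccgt
CD38: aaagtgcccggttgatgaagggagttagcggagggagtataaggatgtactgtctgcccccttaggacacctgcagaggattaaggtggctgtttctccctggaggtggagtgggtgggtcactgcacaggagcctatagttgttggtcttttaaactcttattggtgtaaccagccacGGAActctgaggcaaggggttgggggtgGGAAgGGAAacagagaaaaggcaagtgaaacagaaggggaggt
The IL7R window held 5 ETS cores, and the CD72 and CD38 windows held 3 each. The median over 35116 RefSeq windows of this length was 3, and 92.7% held at least 1. The E-box CANNTG, which reads the same on both strands, occurred 3 times in the CD72 window, 2 times in the CD38 window and not in the IL7R window, and 61.8% of all windows held it. The STAT5 motif TTCNNNGAA was in none of these 3 windows (6.57% of all windows hold it on either strand). GC content was 43.6% for IL7R, 57.2% for CD72 and 52.4% for CD38. A match is a string of letters and not a bound site.

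IL7R (ENSG00000168685.15, chr5:35852695-35879603, plus strand, GRCh38) lost most of its RNA in C3.2 and little in C17.2. In C3.2 it was at 30.44 and 30.46 TPM in the parental libraries and at 7.82 and 7.43 TPM in the resistant libraries. The groups lay far apart, with a 3.99-fold lower mean in resistant cells. The log2 fold change was -1.94 (95% interval -2.11 to -1.76, adjusted p = 0.000137). In C17.2 the parental libraries held 23.28 and 20.88 TPM and the resistant libraries 17.64 and 21.00 TPM. These groups overlapped on the deposited scale. After scaling the log2 fold change was -0.34 (SE 0.0716, adjusted p = 0.0158). That call was lost on the deposited TPM (-0.19, adjusted p = 0.174), without the first parental library of C17.2 (adjusted p = 0.0977) and without its second (adjusted p = 0.0623), and in a fit of C17.2 alone (adjusted p = 0.0712). The fall in C3.2 was kept under every alternative tried, from -2.05 to -1.84. The change differed between the clones by 1.60 (95% interval 1.35 to 1.84, adjusted p = 0.000817), and IL7R was the 1 of 6 tested members called in that comparison, where 9.9% of all tested genes were called. Among protein-coding genes IL7R moved from above 81.2% to above 36% of genes in C3.2, and from above 69.7% to above 61.2% in C17.2.

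IL2RG, the common gamma chain that completes the receptor, fell along with IL7R. Its level was 53.60 and 53.11 TPM in C17.2 parental, 44.05 and 42.22 in C17.2 resistant, 32.68 and 33.87 in C3.2 parental and 11.71 and 10.37 in C3.2 resistant. Within each clone no resistant library reached a parental one. The log2 fold change of IL2RG was -0.46 in C17.2 (adjusted p = 0.00237) and -1.58 in C3.2 (adjusted p = 0.000137), and it also differed between the clones (1.12, adjusted p = 0.00134). Each of these 3 calls of IL2RG was kept when any 1 library was left out. Of the kinases below the receptor, PIM1, a survival kinase, had a lower call in C3.2 (-0.24, adjusted p = 0.0389) that was lost when any 1 library was left out and under each of the other scalings (adjusted p = 0.0573 to 0.194), and it had -0.052 in C17.2 (adjusted p = 0.523). PIM2, also in the list, was called higher in C17.2 (0.36, adjusted p = 0.0462) and had -0.094 in C3.2 (adjusted p = 0.611). The C17.2 call of PIM2 was lost without any 1 library of C17.2 and without either resistant library of C3.2. JAK2 rose in both clones (0.84 and 0.68). JAK3, which binds the gamma chain, rose in C3.2 (0.40, adjusted p = 0.0107) and had 0.11 in C17.2 (adjusted p = 0.197). JAK1, bound by IL7R itself, had 0.11 and 0.029 (adjusted p = 0.101 and 0.697). Of the transcription factors at the end of the pathway, STAT3 rose in both clones (0.17 and 0.33), although in C17.2 the call was lost after quantile normalization (adjusted p = 0.0510). STAT5A had 0.019 and -0.25, and STAT5B had -0.069 and -0.11, and neither passed. The phosphatase PTPN6 (SHP-1), which dampens JAK signaling, rose in both clones (0.53 and 0.33), and SH2B3, an adaptor that restrains JAK2, fell in C17.2 (-0.35) and rose in C3.2 (0.44). The survival factors BCL2 (0.029 and 0.077) and, in C3.2, MCL1 (0.14) did not pass, while MCL1 rose in C17.2 (0.47). Over the 26 pathway genes listed, 19 were tested. In C17.2, 5 were higher and 3 lower, with PTPRC (CD45), which reached 1 TPM only in C17.2 libraries, among the lower ones. In C3.2, 5 were higher and 2 lower. That is 42.1% and 36.8% called, against 27.3% and 11.4% of all tested genes. Medians were 0.029 and 0.077, against 0 over all genes. On the deposited TPM these counts were 8 and 2 in C17.2 and 5 and 1 in C3.2, and without either parental library of C3.2 they were 1 and 1 in that clone. Without any 1 library of C17.2 they were 3 and 3 there. The C3.2 calls of JAK3, PTPN6 and SH2B3 were lost without the first or the second parental library of C3.2, that of JAK2 without its second parental or second resistant library and that of STAT3 without its first parental library, while the C17.2 call of STAT3 was lost without any 1 of the C17.2 libraries. The ligands IL7 and TSLP stayed at or under 0.43 TPM, and CRLF2, the partner of IL7R in the TSLP receptor, at or under 0.03 TPM.

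**Figure D3:**
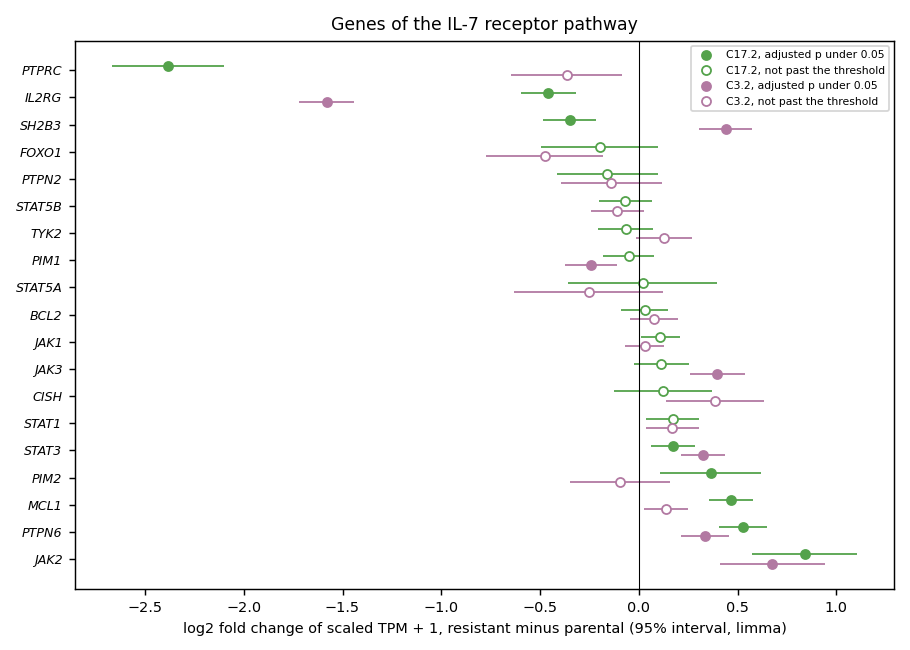
Log2 fold change of scaled TPM + 1, resistant minus parental (horizontal axis), of the 19 tested genes of the IL-7 receptor pathway with 95% intervals from limma, for C17.2 (green) and C3.2 (purple), filled where the adjusted p was under 0.05. IL2RG is lower in both clones and farther from 0 in C3.2, JAK2 and PTPN6 are higher in both, and SH2B3 has filled points on opposite sides of 0.

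Genes beside IL7R on chromosome 5 were examined after their values were seen. Of 4 tested protein-coding neighbors within 500 kb, 2 were higher in C17.2 and 2 were lower in C3.2. UGT3A2, a glycosyltransferase gene 155 kb away, was at 19.21 and 18.88 TPM in C17.2 parental and at 54.77 and 54.97 TPM in C17.2 resistant. In C3.2 it went the other way, from 26.18 and 27.94 TPM to at most 3.43 TPM in both resistant libraries. Its log2 fold changes were 1.32 and -2.78, and the difference between the clones was 4.10 (adjusted p = 1.56e-05). SKP2, which encodes an F-box protein of the SCF ubiquitin ligase and lies 272 kb away, rose in C17.2 from 24.38 and 22 TPM to 39.76 and 40.40 TPM (0.61, adjusted p = 0.000501). In C3.2, SKP2 was at 26.54 and 27.73 TPM in parental cells and 26.42 and 23.38 TPM in resistant cells (-0.19, adjusted p = 0.0640), and the clones differed (0.79, adjusted p = 0.00231). NADK2, the mitochondrial NAD kinase, fell in C3.2 (-0.36, adjusted p = 0.0116), and LMBRD2 did not pass in either clone.

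**Figure D4:**
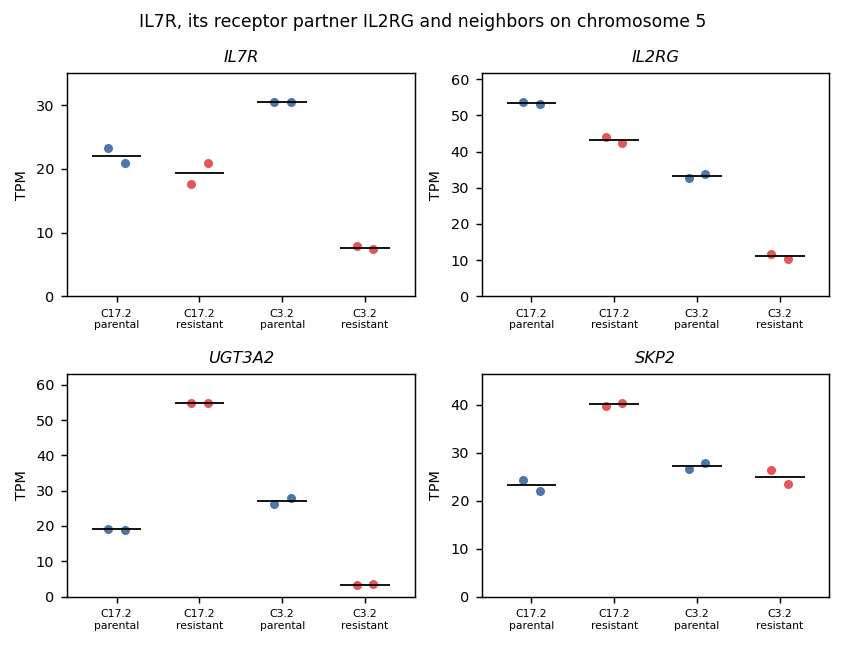
Deposited TPM (vertical axis, linear from 0) of IL7R, of its receptor partner IL2RG, and of UGT3A2 and SKP2 near IL7R on chromosome 5, per library (points, blue parental and red resistant) with the group mean as a line. In C3.2 resistant IL7R, IL2RG and UGT3A2 are lowest, whereas UGT3A2 and SKP2 are highest in C17.2 resistant.

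CD38 (ENSG00000004468.13, chr4:15778275-15853232, plus strand), an enzyme that splits NAD and the target of the antibody daratumumab, was lower in resistant cells of both clones. It was at 5.14 and 6.27 TPM in C17.2 parental and at 2.57 and 2.45 TPM in C17.2 resistant. In C3.2 the parental libraries held 5.85 and 6.70 TPM and the resistant libraries 2.35 and 3.84 TPM. Neither clone's groups overlapped, and mean TPM was 2.27-fold and 2.03-fold lower in resistant cells. The log2 fold change was -1.04 in C17.2 (95% interval -1.53 to -0.55, adjusted p = 0.0117) and -0.92 in C3.2 (95% interval -1.40 to -0.43, adjusted p = 0.0371). The difference between the clones was -0.12, with an interval of -0.81 to 0.57. At this low level single libraries decided the calls. In C17.2 the call was lost without the second parental library (-0.88, adjusted p = 0.0890), without the first resistant library (-1.08, adjusted p = 0.0641) and without the second resistant library (adjusted p = 0.0811). In C3.2 the call was lost in 11 of 16 alternatives, which included leaving out any 1 of the 8 libraries other than the second resistant library of C3.2, and the leave-one-out values ran from -1.21 to -0.62.

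Other genes of NAD metabolism and CD38 binding showed no shared direction. Of those tested, 30.8% were called in C17.2 and 15.4% in C3.2, against 27.3% and 11.4% of all tested genes. Of 16 listed genes 13 were tested, with 2 higher and 2 lower in C17.2 and 1 higher and 1 lower in C3.2, counts that ran from 1 to 5 in C17.2 and up to 1 in C3.2 when 1 library was left out. TRPM2, a cation channel opened by ADP-ribose, fell in C17.2 (-0.61, adjusted p = 0.000504) and had 0.20 in C3.2 (adjusted p = 0.0548), and the clones differed (-0.82, adjusted p = 0.00224). PECAM1, known as the CD38 ligand CD31, rose in C3.2 (0.71, adjusted p = 0.0306) and had 0.45 in C17.2 (adjusted p = 0.0635). PARP1, which consumes NAD in DNA repair, rose in C17.2 (0.18) and was lower in C3.2 (-0.20, adjusted p = 0.0358), a call that was lost under each of the 3 other scalings. The calls of PARP1 were also lost without any 1 of several libraries, in C17.2 the first parental or either resistant library. That of PECAM1 was kept only without the second resistant library of C3.2. Of 5 tested neighbors of CD38 within 500 kb, FGFBP2, 107 kb away, was picked for its values and rose in both clones (2.47 and 1.33), and PROM1, 110 kb away, rose in C3.2 (0.22, adjusted p = 0.0265) and had 0.055 in C17.2 (adjusted p = 0.403). The C3.2 call of PROM1 was lost without either parental library of either clone and without the second resistant library of C3.2. Its leave-one-out values in C3.2 ran from 0.20 to 0.25. The difference of PROM1 between the clones did not pass (-0.17, adjusted p = 0.148).

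CD72 (ENSG00000137101.12, chr9:35609982-35646810, minus strand), an inhibitory co-receptor of B cells that binds semaphorin 4D, fell by a similar share of its level in both clones. It was at 59.28 and 54.46 TPM in C17.2 parental and at 38.02 and 39.42 TPM in C17.2 resistant. In C3.2 it was at 39.88 and 40.62 TPM in parental cells and at 29.22 and 24.88 TPM in resistant cells. Resistant libraries lay below parental ones in both clones, with a mean 31.9% lower in C17.2 and 32.8% lower in C3.2. The log2 fold change was -0.70 (95% interval -0.84 to -0.56, SE 0.0572, adjusted p = 0.000497) and -0.63 (95% interval -0.76 to -0.49, adjusted p = 0.00252). The difference between the clones was -0.072, with an interval of -0.27 to 0.12. The call in C17.2 was kept under all 16 alternatives, and that in C3.2 under 15, with the fit of C3.2 alone as the exception (adjusted p = 0.0713). CD72 shares sequence with TESK1 on the opposite strand, and the sources used here do not say whether counting used strand. TESK1 rose in both clones (0.18, adjusted p = 0.0421, and 0.36, adjusted p = 0.0102). SIT1, which encodes a transmembrane signaling adaptor of lymphocytes and was picked for its values, fell in both clones (-1.19 and -0.46). It lies 2.5 kb from the end of the annotated CD72 span, and farther from the CD72 promoter window shown above.

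CD22 (ENSG00000012124.17, chr19:35319261-35347361, plus strand), a sialic acid-binding inhibitory receptor and the target of inotuzumab, did not pass in either clone. It was at 140.91 and 139.71 TPM in C17.2 parental and at 139.47 and 138.76 TPM in C17.2 resistant, and at 128.94 and 139.61 TPM in C3.2 parental and 149.94 and 150.24 TPM in C3.2 resistant. In C17.2 the resistant libraries lay just below the parental ones, with a mean change of -0.852%, and in C3.2 they lay above, with a mean 11.8% higher. On the scaled values the log2 fold change was -0.17 in C17.2 (95% interval -0.30 to -0.048, adjusted p = 0.0514) and 0.095 in C3.2 (95% interval -0.030 to 0.22, adjusted p = 0.291). The C17.2 value lay next to the threshold. It passed with a pseudocount of 0.1, barely, with a filter of 1 TPM in at least 2 libraries (adjusted p = 0.0456) and without either resistant library of C3.2 (adjusted p = 0.0429 and 0.0435). The clones differed by -0.27 (95% interval -0.44 to -0.091, adjusted p = 0.0716). A same-strand long noncoding RNA inside the CD22 locus was at 4.02 to 7.58 TPM.

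Around CD22 and CD72, the called genes of a list of their pathway were lower more often than higher. The list mixes B-cell receptor components, inhibitory adaptors, and genes for the ligands. Of 26 listed genes 19 were tested, and 2 were higher and 8 lower in C17.2 and 1 higher and 5 lower in C3.2, with medians of -0.22 and -0.013. The called share was 52.6% in C17.2 and 31.6% in C3.2, against 27.3% and 11.4% of all tested genes. The kinases SYK and LYN did not pass in either clone. On the deposited TPM the counts were 3 and 6 in C17.2 and 1 and 4 in C3.2, where the median became 0.051. Without either parental library of C3.2, 2 genes were called there, both lower. The receptor subunit CD79B went from 14.36 and 12.17 TPM to 4.61 and 4.33 TPM in C17.2 and from 15.33 in both parental libraries to 7.29 and 7.49 TPM in C3.2. Its log2 fold changes were -1.51 and -1.03. DOK3, an adaptor that limits calcium signaling, fell in both clones (-1.90 and -1.69), as did FCRLA (-1.92 and -0.94) and the phospholipase PLCG2 (-0.91 and -0.50). The C3.2 calls of FCRLA and PLCG2 were lost without the first or the second parental library of C3.2. PTPN6, the phosphatase that docks on the tails of CD22 and CD72, rose in both, from 187.06 and 183.35 TPM to 288.32 and 310.68 TPM in C17.2 and from 171.59 and 168.41 TPM to 235.46 and 214.54 TPM in C3.2. ST6GAL1, which makes the sialylated glycans that CD22 binds, fell in C17.2 (-0.73, adjusted p = 0.000519) and had 0.067 in C3.2 (adjusted p = 0.524), and the clones differed (-0.80, adjusted p = 0.00445). SEMA4D, the ligand of CD72, had -0.44 and -0.11 and did not pass (adjusted p = 0.0782 and 0.683).

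FLT3 (ENSG00000122025.14, chr13:28003274-28100592, minus strand), a receptor tyrosine kinase of early progenitors and a kinase inhibitor target, showed a small fall from a very high level. It was at 324.40 and 311.49 TPM in C17.2 parental and at 283.05 and 302.33 TPM in C17.2 resistant. In C3.2 the parental libraries held 246.13 and 254.94 TPM and the resistant libraries 228.44 and 217.35 TPM. The groups did not overlap within either clone, with means 7.94% and 11.0% below the parental means. The log2 fold change was -0.28 in C17.2 (95% interval -0.37 to -0.19, adjusted p = 0.00345) and -0.23 in C3.2 (95% interval -0.33 to -0.14, adjusted p = 0.0164), and the difference of -0.046 had an interval of -0.18 to 0.087. These calls depended on the scaling. On the deposited TPM neither passed (-0.12, adjusted p = 0.189, and -0.17, adjusted p = 0.150). In C3.2 the call was also lost with TPM rescaled over protein-coding genes (-0.13, adjusted p = 0.0731), after quantile normalization (-0.12, adjusted p = 0.184), in C3.2 alone (adjusted p = 0.0788) and without the first or the second parental library of C3.2 (adjusted p = 0.0873 and 0.0798).

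Among FLT3 signaling genes, 24 of 26 were tested, with 4 higher and 4 lower in C17.2 and 3 higher and 3 lower in C3.2. These are 33.3% and 25% of the tested ones, against 27.3% and 11.4% of all tested genes. On the deposited TPM, 8 were higher and 2 lower in C17.2. When 1 library was left out, at most 1 was higher and 2 lower in C3.2. GAB2, an adaptor that links the receptor to PI3K, fell in both clones (-1.07 and -0.49), more so in C17.2 (difference -0.58, adjusted p = 0.00420). CBLB, a ubiquitin ligase that limits receptor signaling, rose in both (0.48 and 0.29), and the call in C3.2 was lost on the deposited TPM (adjusted p = 0.0520) and without any 1 library. The kinase FYN fell in C17.2 (-0.74) and had 0.26 in C3.2 (adjusted p = 0.0493), lost on the deposited TPM (adjusted p = 0.0588) and without any 1 library, and the clones differed (-0.996, adjusted p = 0.00244). The ligand FLT3LG did not pass in either clone (-0.17 and 0.35, adjusted p = 0.249 and 0.0659).

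CSPG4 (ENSG00000173546.7, chr15:75674322-75712848, minus strand), the NG2 proteoglycan used to recognize KMT2A-rearranged leukemia, did not pass in either clone. It was at 20.74 and 19.78 TPM in C17.2 parental and 23.35 and 21.19 TPM in C17.2 resistant, and at 19.50 and 20.78 TPM in C3.2 parental and 21.03 and 22.16 TPM in C3.2 resistant. Its groups did not overlap on this scale, with the resistant libraries slightly above. After scaling the log2 fold change was -0.025 (95% interval -0.21 to 0.16, adjusted p = 0.845) and 0.033 (95% interval -0.15 to 0.22, adjusted p = 0.828). The sign in C17.2 turned on the deposited TPM (0.13) and with TPM rescaled over protein-coding genes (0.056). The 5 CSPG4 pseudogene rows summed to 2.46 to 6.14 TPM per library, and reads of the gene and of these copies can be assigned to each other. Of 19 listed partners 11 were tested, with 3 higher and 3 lower in C17.2 and 2 higher and 1 lower in C3.2. Thus 54.5% and 27.3% were called, against 27.3% and 11.4% of all tested genes. ITGB1, the beta-1 integrin, rose in both clones (0.32 and 0.33) and ITGA4, the alpha-4 integrin, fell in both (-0.37 and -0.21), although the fall in C3.2 was lost under each of the 3 other scalings. MMP14, a membrane protease, rose in both (0.80 and 0.63), and in C3.2 the call was lost on the deposited TPM (adjusted p = 0.0612) and without any 1 library. In C17.2 it was lost without the second parental or either resistant library. The C3.2 call of ITGB1 was lost without either parental library of C3.2.

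CD24 (ENSG00000272398.6, chr6:106969831-106975627, minus strand), CD34 (ENSG00000174059.16, chr1:207880972-207911402, minus strand) and MME (ENSG00000196549.10, chr3:155024124-155183704, plus strand) were too low to test. CD24, a glycan-rich adhesion protein of B precursors, was at 0.30 and 0.25 TPM in C17.2 parental, 0.08 and 0.06 in C17.2 resistant, 0.34 and 0.60 in C3.2 parental and 0.11 and 0.08 in C3.2 resistant. Every resistant library was below every parental one. With no filter on low values the log2 fold change of CD24 was -0.25 (adjusted p = 0.132) and -0.46 (adjusted p = 0.0513). The stem-cell antigen CD34 lay between 0 and 0.08 TPM. The neprilysin gene MME was listed at 0 in 6 libraries and at 0.01 and 0.26 TPM in C3.2 parental. The 3 CD24 pseudogene rows were listed at 0. Of 18 listed partners of these genes 10 were tested, with 1 higher and 2 lower in each clone, and the lower calls in C3.2 fell to 1 or fewer when any 1 library was left out. With all libraries 30% of the tested partners were called in each clone, against 27.3% of all tested genes in C17.2 and 11.4% in C3.2. ANPEP, the aminopeptidase CD13, fell in C17.2 (-0.42) and rose in C3.2 (1.04), and the clones differed (-1.46, adjusted p = 0.000288).

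The parental cells of the clones were also compared with each other, which describes where each clone stood before the drug course. Over all genes 22.5% were called, 12% higher and 10.5% lower in C3.2 than in C17.2, and of the 6 tested members 1 was higher and 2 were lower. The share of calls that were higher was 53.2%, and 19% on the deposited TPM and 35.7% with TPM rescaled over protein-coding genes. IL7R was higher in C3.2 parental (0.61, adjusted p = 0.00262), and CD72 (-0.32, adjusted p = 0.0103) and FLT3 (-0.18, adjusted p = 0.0227) were lower. CD72 was not called when any 1 of the 4 parental libraries was left out (adjusted p = 0.0578 to 0.0681), nor was FLT3 (adjusted p = 0.0627 to 0.0918). CD22 (0.10), CD38 (0.26) and CSPG4 (0.15) did not pass. After the drug course the order of IL7R was the other way round, with both C3.2 resistant libraries below both C17.2 resistant libraries, a comparison that was not tested.

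Another 40 surface antigens and therapy targets of B-cell leukemia were counted beside the members. In C17.2, 2 of 29 tested were higher and 15 lower (58.6% called, against 27.3% of all tested genes), with a median of -0.33. In C3.2, 5 were higher and 8 lower (44.8% called, against 11.4% of all tested genes), with a median of -0.086. The balance in C3.2 turned with the scaling, to 5 higher and 3 lower on the deposited TPM, 6 and 5 with TPM rescaled over protein-coding genes and 5 and 4 after quantile normalization, whereas in C17.2 the lower calls stayed in excess (9 to 13 lower and 2 to 4 higher). Without either parental library of C3.2 the counts in that clone were 1 higher and 2 lower. The change differed between the clones for 11 of the 29 (37.9%, against 9.9% of all tested genes). CD52, the alemtuzumab target, rose in C17.2 from 9.88 and 9.91 TPM to 24.42 and 27.87 TPM and fell in C3.2 from 8.90 and 9.52 TPM to 4.80 and 6.69 TPM, and the clones differed (1.83, adjusted p = 0.00496). PTPRC, which encodes CD45, was at 9.22 and 8.33 TPM in C17.2 parental, 0.85 and 1.07 in C17.2 resistant, 0.43 and 0.28 in C3.2 parental and 0.08 and 0.07 in C3.2 resistant. It passed the filter through C17.2 alone, in parental cells, where it was high, and at 1.07 TPM in a resistant library. Under 1 TPM the scale of log2(TPM + 1) leaves little room for a change in C3.2. The values of PTPRC are therefore a description and the clones are not compared by it, although it is 1 of the 11. TNFRSF13C, the BAFF receptor, fell in C17.2 (-1.37) and had -0.13 in C3.2 (adjusted p = 0.243), with a difference of -1.25 (adjusted p = 0.00118). ITGA6, the alpha-6 integrin, rose in C3.2 (1.04) and had -0.43 in C17.2 (adjusted p = 0.0517), with a difference of -1.47 (adjusted p = 0.00662). CXCR4, the chemokine receptor that holds leukemia cells in marrow, fell in both clones (-0.32 and -0.74), with the C17.2 call lost on the deposited TPM (adjusted p = 0.0989). BST2 rose in both (0.52 and 0.32). Single libraries decided the C3.2 calls of CD52 (kept in 2 of 8 leave-one-out fits), BST2 (5 of 8) and ITGA6 (6 of 8, lost without either parental library of C3.2) and the C17.2 call of CXCR4 (5 of 8). Of the 11 untested antigens, CR2 and KIT were listed at 0, and CD27, CRLF2 and CD200 stayed at or under 0.03 TPM.

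**Figure D5:**
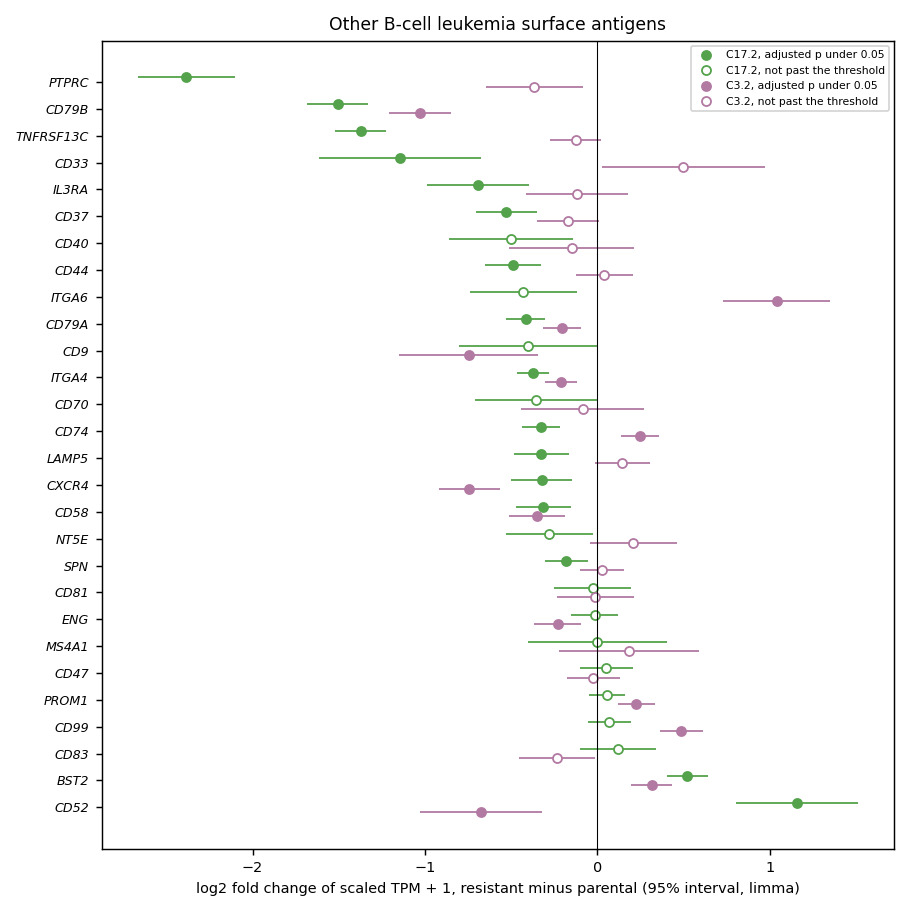
Log2 fold change of scaled TPM + 1, resistant minus parental (horizontal axis), of tested genes among the other B-cell leukemia antigens with 95% intervals from limma, for C17.2 (green) and C3.2 (purple), filled where the adjusted p was under 0.05. TNFRSF13C has a filled point on the left in C17.2 and an open one near 0 in C3.2, PTPRC was under 1 TPM in every C3.2 library, CD79B is lower in both clones, and CD52 has filled points on opposite sides of 0.

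Transcription factors of early B cells changed in both directions beside the members. Of 14 listed 13 were tested, with 1 higher and 5 lower in C17.2 and 3 higher and 5 lower in C3.2, and medians of -0.086 and -0.19. This makes 46.2% and 61.5% called, against 27.3% and 11.4% of all tested genes. TCF3, which encodes the E proteins that open the B-cell program, fell in both clones (-0.52 and -0.41), as did the progenitor factors MYB (-0.26 and -0.72) and SOX4 (-0.29 and -0.60), with the C17.2 calls of MYB and SOX4 and the C3.2 call of TCF3 lost on the deposited TPM (adjusted p = 0.277, 0.104 and 0.0743). Without either parental library of C3.2 at most 1 was higher and 2 were lower in that clone, and the call of TCF3 was lost there. PAX5, the B-lineage identity factor, had 0.019 in C17.2 (adjusted p = 0.816) and rose in C3.2 (0.27, adjusted p = 0.0229), a call kept in 3 of 8 leave-one-out fits.

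For the 4 members called in both clones, the genes with the most similar profile were found by Pearson's r of log2 scaled TPM + 1 over the same 8 libraries among 6382 protein-coding genes, as a description without a test. CD38 was closest to METTL7A (r = 0.988) and NETO2 (0.984), CD72 to MAP4K1 (0.988) and ERBB2 (0.988), FLT3 to SNRPN (0.995) and SEPT6 (0.994), and IL7R to TPT1 (0.988) and ETS1 (0.975). The number of genes above r = 0.95 was 20 for CD38, 72 for CD72, 61 for FLT3 and 12 for IL7R. The genes compared numbered 6382, and the 8 points come from only 4 groups of libraries.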

How the data were processed

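RNA-seq of 8 SEM libraries, 4 groups of 2, was analyzed from the gene-level TPM table deposited by the authors and made with STAR 2.7.9a on GRCh38 and RSEM 1.3.1 after adapter removal by Trim Galore 0.6.3. The labels name single-end reads and the methods paired-end reads. TPM keeps no depth, so no counting interval is given, and the authors' limma-voom fit, which needs counts, was not repeated. A gene was tested when 1 or more libraries reached 1 TPM (15614 genes). Library factors were trimmed means of log2 ratios to the mean library (30% of ratios and 5% of means trimmed from each end). Values of log2(scaled TPM + 1), on which changes of low genes are understated, were fitted with limma 3.58.1 (R 4.3.3) in 1 model of 4 groups with an intensity trend, tested on simulated data first. Tests were two-sided, with Benjamini-Hochberg adjustment and a threshold of 0.05. Members and lists were chosen with earlier results of these data known. Each member is named, and listed genes are named when called in either clone or when a ligand, co-receptor or adaptor of a member, apart from neighbors and other genes said to be picked for their values. Of the listed genes, 1 is counted but not reported here. Positions are from a GENCODE annotation of GRCh38, promoters from RefSeq, where all 9 members had a start. Alternatives changed the scaling, pseudocount, filter, trend and libraries.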

Additional observations from a re-analysis of the deposited data

Results flagged for a closer look

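IL7R was the member whose change differed between the clones. Its log2 fold change was -0.34 in C17.2 and -1.94 in C3.2, and the difference between these, C17.2 minus C3.2, was 1.60 by the interaction term in limma (adjusted p = 0.000817, Benjamini-Hochberg). Both resistant libraries of C3.2 lay below all other libraries. The difference was called under all 15 alternatives, from 1.5 to 1.70. The titles of the 2 clones' libraries carry separate runs of numbers, and clone and any shared handling cannot be told apart.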

How the results depend on the processing

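Over the 6 tested members and 4 contrasts, 319 of the values recomputed kept direction and side of the threshold, 35 lost the call, 4 gained it and 14 changed sign. On the deposited TPM, where the median of all genes moved to 0.13 in C17.2, 0.053 in C3.2 and -0.14 between parental groups, signs turned for CD22 (-0.064) and CSPG4 (-0.0085) between parental groups, for CSPG4 in C17.2 (0.13), and for the difference between clones of CD72 (0.019), CSPG4 (0.033) and FLT3 (0.049). With TPM rescaled over protein-coding genes CSPG4 in C17.2 was 0.056. Leaving out 1 library turned signs within the ranges of the difference between clones for CD38 (-0.42 to 0.17), CD72 (-0.15 to 0.0044) and CSPG4 (-0.15 to 0.030), and of CSPG4 in C17.2 (-0.11 to 0.063) and C3.2 (-0.039 to 0.10). Members called were 2 in C17.2 on the deposited TPM, and 2 after quantile normalization and 1 with C3.2 alone in C3.2. Leaving out 1 library gave 2 to 5 in C17.2, 2 to 4 in C3.2 and 1 to 3 between parental groups. Over all genes, calls in C3.2 were 1166 with no filter and 74 with C3.2 alone. Leaving out 1 library gave 2374 to 4551 in C17.2, 325 to 1785 in C3.2, 541 to 1747 for the difference and 1550 to 3798 between parental groups. With fewer samples the lone library is assumed to vary like the others, and beyond that the cause was not tested. Genes beside the members on their chromosomes were fitted with the reported settings only, unless they were also in a list, as PROM1 was. No paired analysis was possible because parental and resistant libraries share no replicate number in the labels.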

Other observations

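Surrogate light chain genes, which mark early B precursors and are no surface antigens by themselves, were counted among the B-lineage markers. IGLL1 fell in both clones, with log2 fold changes of -2.16 in C17.2 and -2.35 in C3.2 by limma, VPREB1 fell in C3.2 (-0.52), and the recombinase gene RAG2 fell in both clones (-0.97 and -1.99). Of the 11 B-lineage markers 8 were tested, with 5 lower in C17.2, and 1 higher and 5 lower in C3.2. Hence 62.5% and 75% were called, against 27.3% and 11.4% of all tested genes. The call of VPREB1 was lost without the first parental library of C3.2.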
